A study of Arabidopsis thaliana with 15 samples.

Results

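The EDS1 family and the helper NLR genes form the signalling node downstream of intracellular immune receptors in Arabidopsis thaliana. The genes described are EDS1, EDS1B, PAD4, SAG101, ADR1, ADR1-L1, ADR1-L2, NRG1.1 and NRG1.2, taken by gene identifier, and they are 9 of the 32833 genes counted. These genes were chosen with earlier results of these data known. Their expression was followed in plants exposed to increasing amounts of a leaf-colonising bacterium. Col-0 plants without any transgene, raised aseptically in closed boxes, were sprayed at 6 weeks of age with Williamsia sp. Leaf354, and RNA of the aboveground parts was sequenced 96 h later. The 5 groups of 3 libraries were a mock spray of phosphate-buffered saline and bacterial sprays at 100000, 1000000, 10000000 and 100000000 colony-forming units (CFU) per ml, named W5, W6, W7 and W8. Each library is a pool of 2 plants taken from different boxes, and the bacteria present on the leaves at harvest were not analysed here.

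EDS1 is a lipase-like protein that pairs with either PAD4 or SAG101, and both heterodimers are switched on by small nucleotide-derived molecules made by activated TIR-type receptors. The EDS1-PAD4 dimer then works with the ADR1 helper NLRs, and the EDS1-SAG101 dimer with the NRG1 helper NLRs, which are coiled-coil receptors of the RPW8 type that assemble into calcium-permeable channels. In leaves, the PAD4 and ADR1 branch is known mainly for transcriptional defence and salicylic acid, and the SAG101 and NRG1 branch mainly for cell death.

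The genes include tandem pairs, in which reads must be told apart by sequence. The coordinates and sequences given here were read from the TAIR10.1 assembly with its RefSeq annotation. EDS1 (AT3G48090, chr3:17755329-17758147, minus strand) and EDS1B (AT3G48080, chr3:17752463-17755190, minus strand) are 138 bases apart, and their coding sequences are 82.0% identical over 1903 aligned columns. NRG1.1 (AT5G66900, chr5:26714723-26717958, minus strand) and NRG1.2 (AT5G66910, chr5:26718130-26721377, minus strand) are 171 bases apart and 78.0% identical over 2612 columns. The stretches of 90 coding bases in which each pair differs least are shown because they are where a read is hardest to assign, with capitals at the bases that differ between the partners and positions counted from the start codon. The EDS1 pair has 3 differences there, and the NRG1 pair has 1.
EDS1 bases 1182 to 1271: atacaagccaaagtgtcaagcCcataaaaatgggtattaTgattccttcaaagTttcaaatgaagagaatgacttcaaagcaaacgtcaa
EDS1B bases 1197 to 1286: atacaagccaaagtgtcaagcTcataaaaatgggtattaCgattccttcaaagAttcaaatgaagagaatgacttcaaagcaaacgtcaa
NRG1.1 bases 1861 to 1950: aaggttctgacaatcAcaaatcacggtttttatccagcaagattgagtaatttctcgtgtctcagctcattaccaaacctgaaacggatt
NRG1.2 bases 1735 to 1824: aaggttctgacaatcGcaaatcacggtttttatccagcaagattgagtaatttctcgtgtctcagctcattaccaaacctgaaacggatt
The longest identical run was 44 bases in the EDS1 pair and 79 bases in the NRG1 pair, shorter than a 150-base read. No window of 150 bases of EDS1, PAD4, SAG101, ADR1, ADR1-L2, NRG1.1 or NRG1.2 recurred in a transcript of another gene. EDS1B and ADR1-L1 share exon bases with genes on the opposite strand, and because the strand setting of the counting is not given in the sources used here, their counts are uncertain. For EDS1B, 354 of 2427 windows also lie in AT3G48070, which was at 29.6 CPM in mock and 28.9 CPM at W8 and did not pass the test between them (log2 fold change -0.03, adjusted p = 0.721). For ADR1-L1, 302 of 3496 windows also lie in AT4G08785. It shares 691 exon bases with that gene, 282 with AT4G33290 and 130 with AT4G33310, and 76.6% of its exon bases are its own. The part of these genes in its counts was not tested.

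The sequences before the annotated transcript starts of the tandem genes are shown because the partners of each pair behaved differently across densities. They run 5′ to 3′ on the minus strand up to the base before the start, with a length of 250 bases or, where the neighbouring gene is closer, the whole gap. Capitals mark matches to the W box (TTGACC or TTGACT) and to TGACG, the core of TGA factor sites, on either strand. A W box as searched cannot hold TGACG on the same strand.
EDS1 chr3:17758148-17758397: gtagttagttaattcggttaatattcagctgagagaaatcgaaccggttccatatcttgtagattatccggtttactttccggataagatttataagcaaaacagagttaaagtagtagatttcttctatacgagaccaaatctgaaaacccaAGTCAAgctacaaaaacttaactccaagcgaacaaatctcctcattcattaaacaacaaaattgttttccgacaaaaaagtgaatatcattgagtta
EDS1B chr3:17755191-17755328: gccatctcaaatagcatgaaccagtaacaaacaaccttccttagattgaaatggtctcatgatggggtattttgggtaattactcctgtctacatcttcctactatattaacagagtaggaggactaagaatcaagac
NRG1.1 chr5:26717959-26718129: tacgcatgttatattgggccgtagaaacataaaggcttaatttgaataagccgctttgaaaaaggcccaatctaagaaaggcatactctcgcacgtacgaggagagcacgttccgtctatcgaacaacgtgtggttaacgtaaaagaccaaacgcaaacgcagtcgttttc
NRG1.2 chr5:26721378-26721627: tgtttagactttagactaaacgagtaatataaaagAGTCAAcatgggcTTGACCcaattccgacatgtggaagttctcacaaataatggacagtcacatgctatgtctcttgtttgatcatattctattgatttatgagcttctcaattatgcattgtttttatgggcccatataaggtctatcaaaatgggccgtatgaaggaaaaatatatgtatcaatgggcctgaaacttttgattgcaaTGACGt
Within 250 bases, the W box letters were found before 2 of the 9 genes, EDS1 and NRG1.2, and before 28.4% of 27437 genes of the annotation. TGACG was found before NRG1.2 only, against 18.6% of all genes. GAAATTT, bound by CBP60g and SARD1, was found before ADR1-L1 only, against 12.5%. The CAMTA site, CGCG after A, C or G and before G or T, was found before ADR1-L2 only, against 6.06%. A match describes the letters in that window and no more.

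Library totals ranged from 17811560 to 21870246 counts. Mock replicate 3 stood apart from the other mock libraries: on the first principal component of all genes, which held 49.7% of the variance, it was at 19.4 and the others at -42.4 and -39.8. On that component, mock replicate 3 lay within the range of the W7 libraries (-3.94, 12.9 and 25.0) and above every W5 and W6 library. It was the highest mock library for 8 of the 9 genes, the exception being ADR1, for which it was the lowest. Its CPM over the mean of the other mock libraries was 2.46 for EDS1B, 1.40 for SAG101 and for ADR1-L2, and from 0.897 to 1.32 for the remaining 6 genes. Leaf markers were abundant in every library (RBCS1A, the small Rubisco subunit, at 8936 CPM or more), whereas the root genes IRT1, COBL9 and CASP1 and the flower genes AP1, AP3 and LFY were at or near 0. PYK10, SCR and SHR of the root list were detected in every library, at 116 CPM or more for PYK10, and so were the flower genes AG (1.13 to 2.57 CPM), SEP3 (0.639 to 2.40 CPM) and PI (0.148 to 1.26 CPM).

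At the highest density, 8 of the 9 genes rose and NRG1.1 did not pass the test. EDS1, PAD4, SAG101, ADR1, ADR1-L1, ADR1-L2 and NRG1.2 rose by 1.56-fold to 1.82-fold, and EDS1B by 8.93-fold. Values are CPM (counts as a share of the library, with library sizes scaled by the trimmed mean of M-values), and each adjusted p of a gene comes from edgeR's quasi-likelihood test with Benjamini-Hochberg adjustment over 19404 genes, called at 0.05. In W8 against mock, 35.5% of all genes tested were called and 18.5% were called higher. All W8 libraries lay above all mock libraries for the same 8 genes, against 24.3% of all genes tested. The median log2 fold change of the 9 genes was 0.76, and that of all genes tested was -0.003. In bulk tissue, fewer cells of a type and less RNA per cell cannot be told apart. The summed CPM of 5 leaf markers ranged from 18624 to 23423 in mock and from 14427 to 15980 at W8, with CA1 (log2 fold change -0.95), RBCS1A (-0.49) and LHCB1.1 (-0.44) called lower. The remaining leaf markers, FAMA (24.2 to 37.6 CPM over all libraries) and SUC2 (122 to 172 CPM), make up little of this sum. The 6 root markers summed to between 181 and 228 CPM in mock and between 144 and 230 CPM at W8, and the 6 flower markers to between 3.13 and 5.62 CPM and between 3.07 and 3.57 CPM. The part of these markers in the result was not tested.

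**Figure D1:**
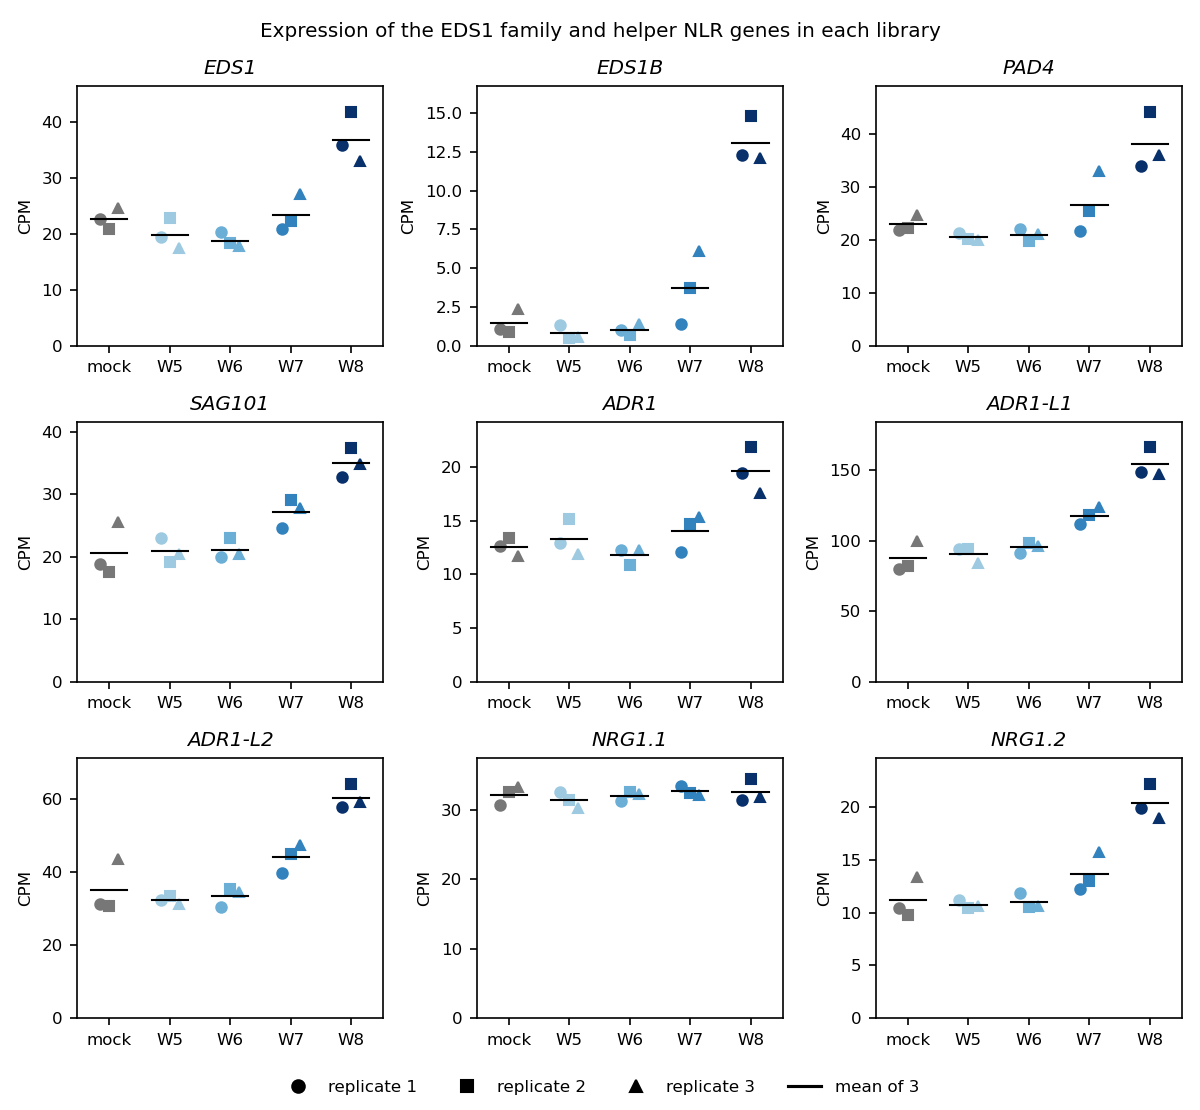
CPM (vertical axes, each from 0) of the 9 genes in the 15 libraries, by group (horizontal axes); symbols are replicates 1 to 3 and lines are means of 3. The W8 libraries sit above every mock library for each gene except NRG1.1, whose 15 values lie between 30.3 and 34.5 CPM.

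EDS1, the shared partner of both dimers, had 22.7, 20.8 and 24.7 CPM in mock replicates 1 to 3. The inoculated libraries had 19.5, 22.8 and 17.4 CPM at W5, 20.4, 18.3 and 17.8 CPM at W6, 20.8, 22.3 and 27.1 CPM at W7, and 35.9, 41.8 and 33.0 CPM at W8. The 3 W8 libraries were above every other library, and the W5 and W7 libraries overlapped the mock range. The log2 fold change of EDS1 at W8 was 0.70 ± 0.11 (SE, adjusted p = 0.000115). At W6 all EDS1 libraries were below all mock libraries, a pattern seen in 6.67% of genes tested, but the log2 fold change of -0.27 was not called (adjusted p = 0.415 over all genes in edgeR).

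EDS1B is the tandem copy of EDS1 and encodes a closely related protein. It was the lowest of the 9 genes in every group, with 19, 17 and 52 counts in the mock libraries, or 1.06, 0.868 and 2.37 CPM. Its libraries had 1.35, 0.505 and 0.529 CPM at W5, 1.03, 0.654 and 1.37 CPM at W6, 1.38, 3.73 and 6.09 CPM at W7, and 12.3, 14.8 and 12.1 CPM at W8. The W8 libraries again stood above all others, and the W7 libraries were spread from the upper W6 value to more than the highest mock value. The log2 fold change of EDS1B at W8 was 3.16 ± 0.51 (SE, 95% interval 2.03 to 4.29, adjusted p = 0.00053). Without mock replicate 3 the value was 3.76 (adjusted p = 0.000287).

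As a share of the counts of EDS1 and EDS1B together, EDS1B made up 4.46%, 4.0% and 8.77% in mock replicates 1 to 3. At W5 the shares were 6.49%, 2.17% and 2.94%, and at W6 they were 4.82%, 3.45% and 7.16%. At W7 they were 6.21%, 14.3% and 18.3%, so replicate 1 lay within the mock range and the other replicates above it. At W8 they were 25.5%, 26.1% and 26.8%, with Wilson 95% intervals that together span 23.0% to 29.9% and cover counting error only. These shares are not corrected for transcript length, which differs little between the copies (2551 exon bases for EDS1 and 2576 for EDS1B). However, 503 exon bases of EDS1B are shared with AT3G48070, so that 80.5% are its own, against 100% for EDS1. The effect of the shared bases on the shares was not tested.

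**Figure D2:**
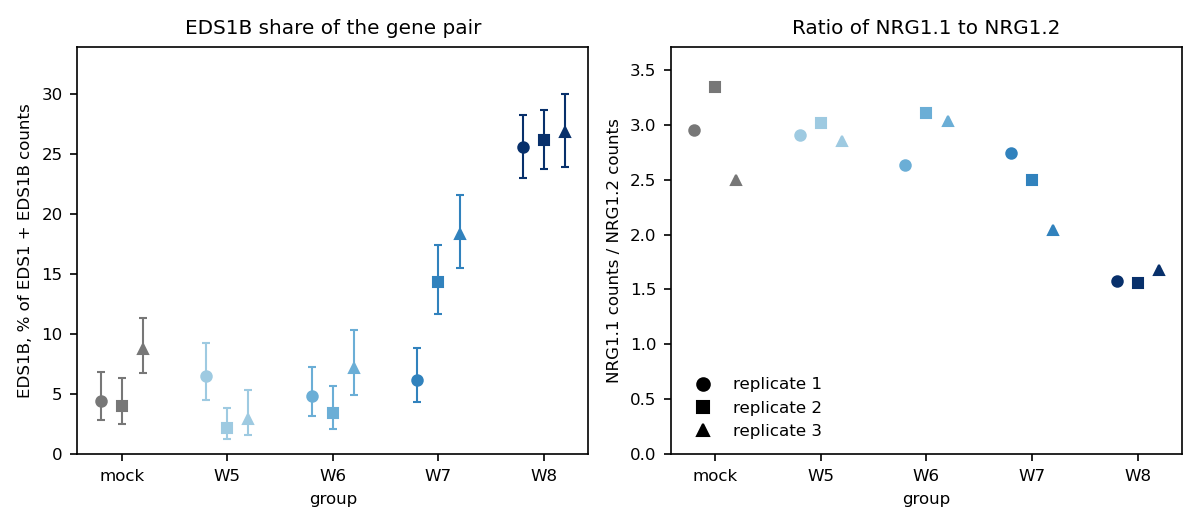
Left, EDS1B as a percentage of EDS1 plus EDS1B counts in each library, with Wilson 95% intervals as bars; right, NRG1.1 counts divided by NRG1.2 counts; symbols are replicates 1 to 3 of each group. The W8 libraries hold the 3 highest EDS1B shares, 25.5% to 26.8%, and the W8 mean ratio of NRG1.1 to NRG1.2 was 1.60 against 2.91 in mock.

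PAD4, which joins EDS1 in the dimer that signals through ADR1 proteins, had 22, 22.3 and 24.7 CPM in mock. It had 21.3, 20.1 and 20.1 CPM at W5, 22.1, 19.8 and 21.2 CPM at W6, 21.7, 25.4 and 33.0 CPM at W7, and 33.9, 44.3 and 36.1 CPM at W8. All W8 libraries were above all others, although W7 replicate 3 came close to the lowest of them. Against mock, PAD4 rose at W8 by 0.73 ± 0.12 in log2 (SE, adjusted p = 0.000224).

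SAG101, the EDS1 partner of the NRG1 branch, had 18.8, 17.6 and 25.6 CPM in mock, with replicate 3 apart from the others. It had 23.0, 19.1 and 20.5 CPM at W5, 20.0, 23.0 and 20.4 CPM at W6, 24.6, 29.1 and 27.7 CPM at W7, and 32.8, 37.5 and 34.9 CPM at W8. Only mock replicate 3 reached into the W7 range, and none reached the W8 range. The log2 fold change of SAG101 at W8 was 0.76 ± 0.12 (SE, adjusted p = 6.83e-05).

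ADR1, the helper NLR after which its group is named, had 12.7, 13.4 and 11.7 CPM in mock. It had 12.9, 15.2 and 11.9 CPM at W5, 12.3, 10.8 and 12.3 CPM at W6, 12, 14.7 and 15.4 CPM at W7, and 19.4, 21.8 and 17.6 CPM at W8. The 4 other groups overlapped one another, and W8 stood above them. Against mock, ADR1 rose at W8 by 0.64 ± 0.11 in log2 (SE, adjusted p = 0.000218).

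ADR1-L1, which acts redundantly with ADR1 and ADR1-L2, was the most abundant of the 9 genes. It had 80.2, 82.2 and 99.8 CPM in mock, 94.2, 93.8 and 84.5 CPM at W5, and 91.3, 98.4 and 96.2 CPM at W6. At W7 it had 111, 118 and 124 CPM, and at W8 149, 166 and 147 CPM. Each W7 library was above every mock, W5 and W6 library, and each W8 library above every W7 library. The log2 fold change of ADR1-L1 at W8 was 0.82 ± 0.079 (SE, adjusted p = 3.13e-07).

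ADR1-L2, the remaining member of the redundant trio, had 31.3, 30.6 and 43.4 CPM in mock, so that mock replicate 3 fell within the W7 range. It had 32.4, 33.5 and 31.3 CPM at W5, 30.4, 35.3 and 34.5 CPM at W6, 39.6, 44.8 and 47.5 CPM at W7, and 57.7, 64.1 and 59.1 CPM at W8. The W8 libraries were above all others. Against mock, ADR1-L2 rose at W8 by 0.78 ± 0.11 in log2 (SE, adjusted p = 3.89e-05).

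NRG1.1 and NRG1.2 encode the full-length helper NLRs that work with SAG101, and they differed from each other. NRG1.1 had 30.7, 32.6 and 33.3 CPM in mock, 32.6, 31.5 and 30.3 CPM at W5, and 31.3, 32.7 and 32.3 CPM at W6. It had 33.4, 32.5 and 32.1 CPM at W7 and 31.4, 34.5 and 31.9 CPM at W8, and all groups overlapped. Its log2 fold change at W8 was 0.02 ± 0.062 (SE, 95% interval -0.11 to 0.15, adjusted p = 0.870). Over the 15 libraries, with 549 to 734 counts each, the SD of its log2 CPM was 0.048, close to the 0.057 that counting error alone gives at its mean of 650 counts. A smaller SD was found for 0.335% of all genes tested and for 0.259% of the 3477 genes of similar mean level. Under upper-quartile scaling its log2 fold change at W8 was -0.05, and it was not called under any of the alternatives run.

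NRG1.2 had 10.4, 9.76 and 13.3 CPM in mock. It had 11.2, 10.4 and 10.6 CPM at W5, 11.9, 10.5 and 10.6 CPM at W6, 12.2, 13.0 and 15.7 CPM at W7, and 19.9, 22.2 and 19.0 CPM at W8. Its W8 libraries were above all others, and mock replicate 3 lay within the W7 range. The log2 fold change of NRG1.2 at W8 was 0.86 ± 0.12 (SE, adjusted p = 1.45e-05). NRG1.3, a truncated relative in the same cluster, had 0 to 13 counts per library and ADR1-L3 had 0 to 1, too few for a test with all 15 libraries. Without mock replicate 3, NRG1.3 was tested and not called at W8 (log2 fold change 5.83 ± 2.57, SE, adjusted p = 0.0951).

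At the lower densities few of these genes were called. In W5 against mock, edgeR called none of the 9 genes (0.18% of all genes tested were called), with 0 at an unadjusted p under 0.05 and 0 by DESeq2; all PAD4 libraries were below all mock libraries, as were those of 5.59% of genes tested. In W6 against mock, none was called (background 1.28%), with 1 at an unadjusted p under 0.05, EDS1, and 0 by DESeq2. W6 against W5 also gave no call (background 0.289%), with 0 at an unadjusted p under 0.05 and 0 by DESeq2. The median log2 fold change of the 9 genes was -0.06 at W5 and -0.08 at W6.

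At W7, SAG101 (log2 fold change 0.39 ± 0.12, SE, adjusted p = 0.0359) and ADR1-L1 (0.43 ± 0.079, adjusted p = 0.00142) rose against mock, 2 of 9 genes where 13.1% of all genes tested were called and 6.29% were called higher. All W7 libraries were above all mock libraries for ADR1-L1 alone among the 9, against 14.9% of genes tested. The median log2 fold change of the 9 genes was 0.28. Individual libraries decide this count. Without mock replicate 3 it was 5, with ADR1-L2 at 0.51 (log2, adjusted p = 0.000314), NRG1.2 at 0.44 (0.0118) and EDS1B at 1.95 (0.0408) added. Without W7 replicate 1 the count was 4, and it was 1 without mock replicate 1, mock replicate 2, W7 replicate 2 or W7 replicate 3. Over all genes, the 2534 calls (1221 higher) became 3866 (1952 higher) without mock replicate 3 and 2191 without W7 replicate 1. Without the other libraries named, they became 1253, 1120, 1164 and 1662 in that order.

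**Figure D3:**
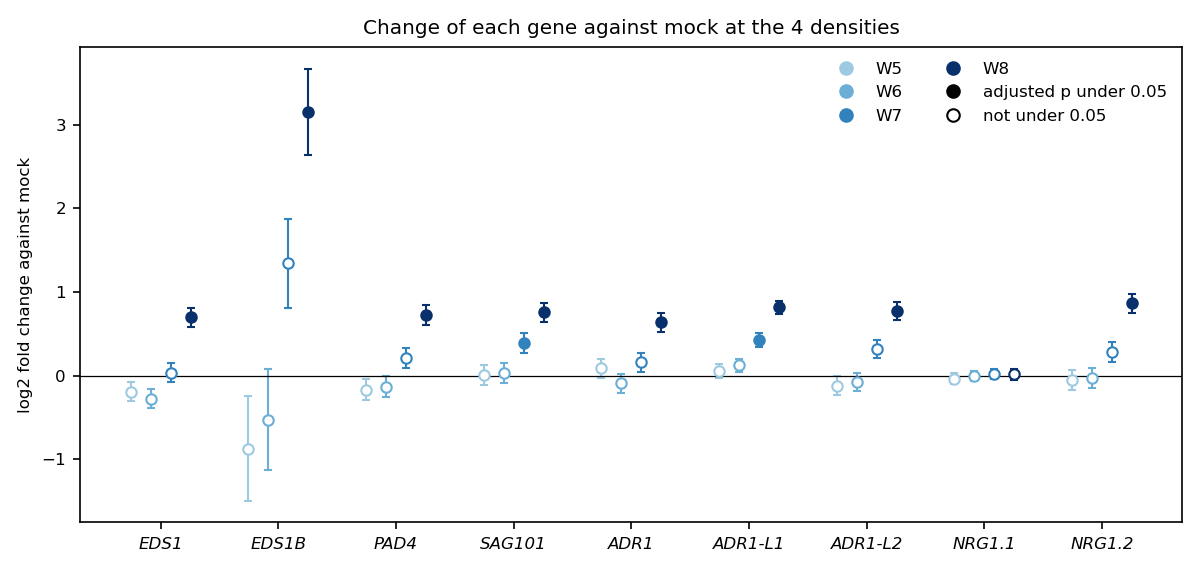
Log2 fold change against mock (vertical axis) of each gene at W5, W6, W7 and W8, with the standard error as bars; filled points have an adjusted p under 0.05. Filled points are the 8 genes other than NRG1.1 at W8 and SAG101 and ADR1-L1 at W7, and EDS1B at W8 is the farthest from 0 at 3.16.

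Between neighbouring densities, the step from W7 to W8 held most of the calls. From W6 to W7, ADR1-L1 alone was called higher (log2 fold change 0.30, adjusted p = 0.0480), where 2.62% of all genes were called and 1.59% higher. Before adjustment, 8 of the 9 genes had an edgeR p under 0.05. The share of all genes tested under that unadjusted threshold was not determined, so this count has no background. The log2 fold changes not called were 1.87 for EDS1B, 0.40 for ADR1-L2, 0.36 for SAG101 and 0.35 for PAD4. Also not called, EDS1 and NRG1.2 were at 0.31 each, ADR1 at 0.25 and NRG1.1 at 0.03. The values of EDS1B and SAG101 were about as large as those from W7 to W8. All W7 libraries were above all W6 libraries for 6 genes, against 12.2% of genes tested; PAD4, ADR1 and NRG1.1 were the others. ADR1-L1 lost this call without W6 replicate 1, W6 replicate 3, W7 replicate 1, W7 replicate 2 or W7 replicate 3. The number of the 9 genes called was 0 without any of these except W7 replicate 1, without which it was 2. Over all genes, the 508 calls became 66, 39, 401, 55 and 110 in the order of the libraries named.

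From W7 to W8, 8 genes rose, where 12.1% of all genes tested were called and 6.79% were called higher. The W8 libraries of these 8 genes did not overlap the W7 libraries, against 17.8% of genes tested that were higher in every W8 library. The log2 fold changes were 0.66 for EDS1 (adjusted p = 0.00114), 0.51 for PAD4 (0.0114) and 0.37 for SAG101 (0.0435). They were 1.81 for EDS1B (0.0273), 0.48 for ADR1 (0.00858), 0.39 for ADR1-L1 (0.00329), 0.46 for ADR1-L2 (0.0112) and 0.58 for NRG1.2 (0.00308). NRG1.1 was at -0.004 (0.980). The count of 8 fell to 3 without W7 replicate 1, to 3 without W8 replicate 2 and to 5 without W7 replicate 2. Over all genes, the 2350 calls fell to 1038, 1098 and 1552 in the same order. Over 14 alternatives, SAG101 lost this call in 9 and EDS1B in 6.

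Across the 12 inoculated libraries, the same 8 genes rose with density, where 34.7% of 19285 genes tested had a called slope and 19.4% a positive one. Per 10-fold density, the log2 slope was 1.5 ± 0.17 (SE) for EDS1B (adjusted p = 3.59e-05) and lay between 0.19 for ADR1 (adjusted p = 0.00645) and 0.31 for NRG1.2 (adjusted p = 2.22e-05) for the other 7 called genes. The slope of NRG1.1 was 0.02 ± 0.019 (SE, adjusted p = 0.512). In the test of any difference among the 5 groups, 8 genes passed (background 32.9%), and NRG1.1 did not (adjusted p = 0.935). W8 replicate 2 was the highest W8 library for 9 of 9 genes.

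Levels can be compared between genes only per length, for which RPKM values (reads per kilobase of exon, scaled as the CPM) were computed with exon lengths of the RefSeq annotation. In mock, the order of mean RPKM was ADR1-L1 (21.0 ± 2.6, SD, n = 3), ADR1-L2 (12.4 ± 2.5), NRG1.1 (10.9 ± 0.47), PAD4 (10.2 ± 0.67), SAG101 (9.39 ± 1.9), EDS1 (8.92 ± 0.76), ADR1 (4.30 ± 0.29), NRG1.2 (3.85 ± 0.66) and EDS1B (0.557 ± 0.32). The ranges of neighbours in that order overlapped from ADR1-L2 down to EDS1 and between ADR1 and NRG1.2. ADR1-L1 was above all others and EDS1B below all others in every group. For both, the length used includes the exon bases shared with genes on the opposite strand, so their RPKM is uncertain. At W8, PAD4 (16.9 ± 2.4 RPKM), SAG101 (15.9 ± 1.1 RPKM) and EDS1 (14.5 ± 1.8 RPKM) overlapped each other and lay above NRG1.1 (11.0 ± 0.56 RPKM). In mock, the mean of NRG1.1 had been above theirs. Its mock libraries (10.4 to 11.3 RPKM) overlapped those of PAD4 and SAG101 and lay above those of EDS1 (8.17 to 9.68 RPKM). NRG1.2 (7.02 ± 0.56 RPKM) and ADR1 (6.69 ± 0.73 RPKM) overlapped at W8, and EDS1B reached 5.07 ± 0.58 RPKM.

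The balance within pairs of genes was tested as the slope of the log2 ratio of counts on log10 density over the 12 inoculated libraries, with a two-sided permutation test of 100000 resamples adjusted over 5 ratios. The ratio of NRG1.1 to NRG1.2 was 2.91 in mock, 2.92 at W5, 2.92 at W6, 2.41 at W7 and 1.60 at W8 (geometric means, n = 3). Its slope was -0.29 ± 0.051 (SE, permutation p = 0.0002, adjusted p = 0.0005), so NRG1.1 and NRG1.2 differed in their relation to density. The ratio of EDS1 to EDS1B was 17.1, 26.8, 18.8, 7.32 and 2.82 in the same order, with a slope of -1.11 ± 0.17 (permutation p = 0.00015, adjusted p = 0.0005). ADR1-L1 over ADR1-L2 had a slope of -0.05 ± 0.015 (permutation p = 0.00915, adjusted p = 0.0153). Its ratio was 2.80 at W5, 2.86 at W6, 2.68 at W7 and 2.55 at W8. In mock, which the slope does not use, it was 2.51, so the W8 ratio was near that of mock. For PAD4 over EDS1, the slope was -0.0002 ± 0.035 (permutation p = 0.996), and the ratio stayed between 1.01 and 1.13. For PAD4 over SAG101, the ratio that sets the branches apart, the slope was 0.04 ± 0.042 (permutation p = 0.381, adjusted p = 0.476). Without the W8 libraries, a choice made after seeing the data, no ratio passed: the NRG1 slope was -0.14 (permutation p = 0.0497, adjusted p = 0.124), the EDS1 slope -0.94 (permutation p = 0.0187, adjusted p = 0.0936) and the ADR1-L1 slope -0.03 (permutation p = 0.276, adjusted p = 0.369).

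Other genes of the pathway were taken from 5 lists with tested genes, and their counts at W8 stand against the 18.5% of all genes called higher and 17% called lower. Among TIR receptors and TIR-only proteins, which act through EDS1, 6 of 12 tested rose and 1 fell (median log2 fold change 0.22). RPS4, which recognises bacterial effectors, had a log2 fold change of 0.75 (adjusted p = 5.23e-06), and CHS3 and CSA1, a neighbouring receptor pair, rose by 0.42 each (adjusted p = 8.73e-05 and 0.000173). Among coiled-coil receptors and NDR1, 5 of 6 rose and 1 fell (median 0.76), with ZAR1, which forms a resistosome, at 1.1 (adjusted p = 2.06e-07) and RPP8 at 0.54 (1.39e-06). Of the chaperones and regulators, 10 of 17 rose and 1 fell (median 0.26), among them the cochaperones SGT1B (0.39, adjusted p = 0.000123) and SGT1A (0.26, 0.0033) and CAMTA3, a repressor of defence genes (0.46, 0.000189).

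Of 12 genes for salicylic acid and N-hydroxypipecolic acid and their outputs, 6 rose and none fell at W8 (median 1.27). PR1, a classical salicylic acid marker, had 0, 0 and 20 counts in mock replicates 1 to 3 and 1886, 2392 and 526 counts at W8. Its fitted log2 fold change of 7.79 (adjusted p = 0.000691) therefore rests on mock replicate 3. Without that library it was still called (adjusted p = 0.00297), and its mean of 75.5 CPM at W8 was at least 470.4-fold higher than a floor of 3 counts per mock library. PR2, a secreted glucanase, rose by 3.04 (adjusted p = 0.00203), and NPR1, a salicylic acid receptor, by 0.67 (adjusted p = 4.64e-06). All 12 genes had a called positive slope on density, as had 19.4% of all genes tested. Without mock replicate 3, 10 of the 12 were called higher at W8 against mock. Over all genes, 4019 were called higher without that library and 3588 with it. All 6 tested genes of leaf senescence rose (median 0.86). Those with the smallest p were the transcription factor genes NAP (1.29, adjusted p = 9.85e-07) and ORE1 (1.3, 3.96e-05) and PAO, which opens the chlorophyll ring (0.42, 2.34e-05); the largest log2 fold change was that of SAG13 (4.50, adjusted p = 0.00153), named after its values were seen.

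At W7 against mock, where 6.29% of all genes tested were called higher, the number that rose was 1 of 12 TIR receptors, 3 of 6 coiled-coil receptors and NDR1, 1 of 17 chaperones and regulators, 0 of 12 salicylic acid genes and 4 of 6 senescence genes. Counts such as 1 of 17 and 0 of 12 are near that background. The chaperone gene HSP90.2 fell (log2 fold change -0.39, adjusted p = 0.00279), and no other gene of the 5 lists did. Without mock replicate 3 the numbers that rose were 2, 4, 3, 2 and 4, and 1 gene fell in each of the coiled-coil and chaperone lists. Over all genes, 1952 were called higher in that setting and 1221 with all libraries. From W7 to W8, where 6.79% of all genes tested were called higher, 5, 4, 3, 4 and 0 rose in the same order and none fell; 0 of 6 is near that background.

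**Figure D4:**
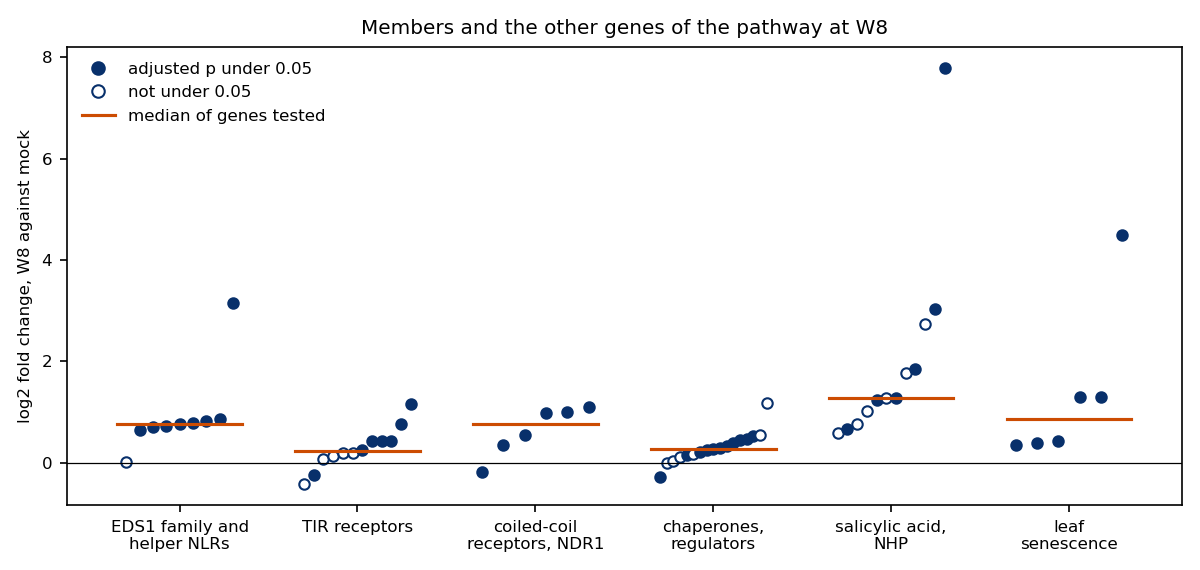
Log2 fold change in W8 against mock (vertical axis) of the 9 genes and of the tested genes of 5 pathway lists, ordered by value within each list; filled points have an adjusted p under 0.05 and lines are medians. Of the 9 genes, those other than EDS1B and NRG1.1 lie close together, between 0.64 and 0.86, whereas the salicylic acid genes reach 7.79.

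For each of the 8 genes with a difference among groups, the genes with the most similar pattern were found by the root mean square (RMS) difference of mean-centred log2 CPM over 15 libraries. SAG101 was closest to ADR1-L1 (RMS 0.088), then to AT5G05140 (0.089) and ADR1-L2 (0.093), so its nearest genes include members of the ADR1 group. ADR1-L1 itself was closest to the glycerol kinase gene NHO1 (0.071), AT5G25265 (0.072) and AT1G03290 (0.075). NRG1.2 was closest to AT4G23470 (0.062), CNBT1, a cyclic nucleotide-gated channel gene (0.073), and PA200, a proteasome activator gene (0.086). EDS1 was closest to the calcium-dependent kinase gene CPK6 (0.094), the exocyst gene EXO70E2 (0.10) and AT1G52780 (0.11). The nearest genes of EDS1B were AT5G08240 (0.29), the salicylic acid hydroxylase gene DMR6 (0.33) and PNP-A (0.35). Its own values had an RMS of 1.55 around their mean. For the other genes this own RMS lay between 0.28 (ADR1) and 0.37 (NRG1.2). The larger RMS differences of EDS1B are therefore not comparable with those of the other genes. PAD4 was closest to AT3G28480 (0.091), AT4G23470 (0.092) and AT1G52780 (0.093). ADR1 was closest to AT2G31390 (0.10), AT2G39270 (0.11) and PDIL1-1 (0.11), and ADR1-L2 to AT3G51890 (0.081), AT4G19520 (0.084) and PAPP2C (0.084).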

How the data were processed

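The deposited file holds raw read counts per gene for 15 libraries, as whole numbers. Per the submitters' processing notes, reads were trimmed with cutadapt 1.9.1 and counted with featureCounts 1.22.2 on TAIR10; the sources used here do not give the aligner, annotation release, strand setting or treatment of multi-mapping reads. Per the labels, libraries were poly-A enriched and read as paired ends of 150 bases. From these counts, edgeR 4.0.16 in R 4.3.3 was run with its expression filter (minimum count 10, minimum total 15, leaving 19404 genes), trimmed mean of M-values scaling, 1 mean per group over all 15 libraries and robust quasi-likelihood tests with Benjamini-Hochberg adjustment. The slope on log10 density used the 12 inoculated libraries. Wilson intervals are at 95%. Genes were located on TAIR10.1, while the notes name TAIR10, and the count table holds no coordinates. Alternatives were DESeq2 1.42.0, other scalings, no filter, non-robust fits, only the compared groups, a replicate block and leaving out libraries. No library pair agreed within sampling noise, so each counted as a replicate. The labels place all libraries in the same experiment, so p-values measure the spread between its pools of plants. The genes named are the 9 members, the 3 of each pathway list with the smallest p at W8 against mock, and the 3 nearest genes by pattern, of which 1 list gene is not reported here; other genes are named where a result turns on them. The members and lists were chosen with earlier results of these data known. The fit was tested on simulated data.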

Additional observations from a re-analysis of the deposited data

How the results depend on the processing

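In W8 against mock, the slope on density and the test of any difference, 8 of the 9 genes were called under every alternative run, and in W5 against mock, W6 against mock and W6 against W5 none was. For members called, W7 against mock, the count of 2 became 4 with mock replicate 3 and W8 replicate 2 both left out, 1 with only the compared groups, and 1 to 5 with 1 library left out. Over all genes, the 2534 calls became 4158, 1756 and 1120 to 3866 in the same order. For members called, W7 against W6, the count of 1 became 3 with DESeq2, 3 with both libraries out and 3 with only the compared groups. It became 0 without robust fitting, 0 with upper-quartile scaling, and 0 to 2 with 1 library left out. The 508 calls over all genes became 1041, 1424, 642, 402, 593 and 39 to 1153 in that order. For members called, W8 against W7, the count of 8 ranged from 3 to 7 with 1 library left out. The 2350 calls over all genes then ranged from 1038 to 2156. Over 14 alternatives of all kinds, the call was lost in 9 for SAG101, 6 for EDS1B and 4 for PAD4. It was lost in 2 for ADR1 and in 2 for ADR1-L2. The cause of these changes was not tested. Without the W8 libraries, the slopes of the log2 ratios of EDS1 over EDS1B (-0.94), ADR1-L1 over ADR1-L2 (-0.032) and NRG1.1 over NRG1.2 (-0.14) no longer passed, with fewer libraries in the fit. The slope of PAD4 over EDS1 took either sign around 0, between -0.04 and 0.06.

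Replicate numbers did not pair the samples: deviations of same-numbered libraries correlated between -0.305 and 0.320 (median 0.045), above 0.1 in 6 of 30 pairs. With the replicate block, 3 of the 9 genes were called in W7 against mock, beside 2650 of all genes. The other counts of the 9 genes were those without the block. Over all genes, the counts called in W5, W6 and W7 against mock were 35, 249 and 2534, and ranged from 15 to 60, 147 to 469 and 1120 to 3866 with 1 library left out. Those in W7 against W6 and W8 against W7 were 508 (39 to 1153) and 2350 (1038 to 2156), and that in W6 against W5 was 56 (26 to 80). Under the other alternatives they ranged from 14 to 78, 145 to 577, 1756 to 4158, 402 to 1424, 1807 to 2604 and 53 to 137 in that order. Upper-quartile scaling changed the split of higher and lower calls from 3588 and 3308 to 2877 and 4299 in W8 against mock, from 3734 and 2965 to 3018 and 4163 for the slope, from 1318 and 1032 to 1052 and 1447 in W8 against W7, and from 308 and 200 to 234 and 359 in W7 against W6. EDS1B, with 10 to 113 counts per library below W8, is the gene whose precision depth limits most.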
